A study of Mus musculus with 28 samples.

Results

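The genes described here encode the proteins that copy DNA before a cell divides. They were taken by symbol from a list of 41 names, and 40 of them had a row among the 14219 genes of the deposited table. Orc1 was not analysed here. The list's rule names genes only, but the list was chosen with earlier results of these data known. All 40 passed the filter on low values (at least 1 CPM, read counts scaled to library size, in at least 6 libraries). For 10 of them the labelled control libraries alone would not have met it (at most 5 libraries at 1 CPM), so they passed through the labelled βKlf6KO groups: Tk1 reached 1 CPM in 7 of 28 libraries, Mcm10 in 10 and Pole in 15.

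DNA replication starts at origins that are licensed in G1, when the origin recognition complex, CDC6 and CDT1 load rings of the MCM proteins onto DNA. At the start of S phase CDC45 and the GINS complex join each ring and turn it into the helicase that opens the double strand. Primase and the polymerases then copy both strands, held on DNA by the sliding clamp PCNA, while histone chaperones rebuild chromatin behind the fork. In adult islets few cells divide, and many of these genes are transcribed mainly from late G1 to G2.

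Islets from 28 male mice each gave 1 RNA library, so the spread behind each p-value is that between animals. The mice were 10 to 12 weeks old, on a mixed C57Bl6 and 129sv background, and all carried Klf6 flox/flox, a Klf6 gene flanked by loxP sites. Mice labelled control had no Cre. Mice labelled βKlf6KO also carried Ins1Cre/+, a Cre recombinase driven by 1 copy of the insulin gene Ins1 and so active in β cells, so that other islet cells keep Klf6. Each genotype received either saline or the insulin receptor antagonist S961. There were 6 libraries labelled control saline, 6 labelled βKlf6KO saline, 8 labelled control S961 and 8 labelled βKlf6KO S961. The comparison of interest is labelled genotype within each treatment. Per the labels, 120 to 150 islets per mouse were picked by hand and kept overnight in culture before RNA was extracted.

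The targeted gene, Klf6, stood no lower in labelled βKlf6KO than in labelled control libraries. Its log2 difference from labelled control was -0.03 after saline (limma adjusted p = 0.974) and 0.28 after S961 (limma adjusted p = 0.517). Groups are therefore called by their labels throughout, and each direction below rests on those labels. Reads over the listed genes ranged from 28868638 to 45001633 per library, and 0 reads, by counting error alone, is compatible with up to 3 reads, which is 0.0685 to 0.105 CPM. The β cell markers, 9 of 9 with a row, summed to between 57220 and 225020 CPM in every library. At a limma adjusted p below 0.05, 0 of the 9 was higher in labelled βKlf6KO. The difference was positive for 3 of 9 after saline and 1 of 9 after S961. In limma Slc2a2 and Nkx6-1 were lower in labelled βKlf6KO after saline, and Slc2a2, Nkx6-1 and Pdx1 after S961. The first principal component over all genes held 54.9% of the variance, and labelled control S961 replicate 2, labelled control saline replicate 4 and labelled control S961 replicate 8 scored highest on it.

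Promoter letters are shown because the members share a regulation by E2F factors as textbook background, and the sequences let the members that passed the test be set beside those that did not. RefSeq windows of 300 bases (build GRCm38.p6, 250 bases before to 50 after each start) were found for 33 of the 40 members. Windows were searched on both strands for TTTCCCGC, TTTCGCGC, TTTGCCGC or TTTGGCGC, letters bound by E2F proteins. At least 1 match lay in the windows of 13 of 33 members (39.39%), against 704 of 27025 genes of the promoter table (2.6%). By the outcome of the saline comparison described further on, matches were found for 5 of 11 members that passed its test (45.45%) and 8 of 22 that did not (36.36%). The letters CCAAT (or ATTGG on the other strand), bound by NF-Y, were found for 21 of 33 members (63.64%), against 41.06% of all genes. The letters TTTGAA (or TTCAAA), known from genes that peak in G2 and mitosis, were found for 5 of 33 (15.15%), against 20.23% of all genes. By the same outcome, CCAAT was found for 8 of 11 members that passed (72.73%) and 13 of 22 that did not (59.09%). TTTGAA was found for 3 of 11 (27.27%) and 2 of 22 (9.09%). A match is a description of the letters and not of binding.

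The 200 bases before the RefSeq start are printed 5′ to 3′ on the gene's strand for 5 members, none of which overlaps an exon of the GENCODE M21 annotation in that stretch. Mcm5 (chr8:75109309-75109508, plus strand) and Uhrf1 (chr17:56304113-56304312, plus strand, the downstream of its RefSeq starts) passed the test after saline. Mcm6 (chr1:128359706-128359905, minus strand) and Pola1 (chrX:93632156-93632355, minus strand) did not. Capitals mark the E2F letters in these 4.
Mcm5: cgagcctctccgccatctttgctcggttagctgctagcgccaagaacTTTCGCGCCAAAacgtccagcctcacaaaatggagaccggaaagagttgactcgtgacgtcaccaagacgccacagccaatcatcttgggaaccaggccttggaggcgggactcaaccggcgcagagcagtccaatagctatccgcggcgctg
Uhrf1: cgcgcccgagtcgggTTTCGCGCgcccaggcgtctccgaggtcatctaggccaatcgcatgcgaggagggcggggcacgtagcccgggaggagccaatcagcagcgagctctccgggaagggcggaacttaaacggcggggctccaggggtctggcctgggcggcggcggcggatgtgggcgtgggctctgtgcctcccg
Mcm6: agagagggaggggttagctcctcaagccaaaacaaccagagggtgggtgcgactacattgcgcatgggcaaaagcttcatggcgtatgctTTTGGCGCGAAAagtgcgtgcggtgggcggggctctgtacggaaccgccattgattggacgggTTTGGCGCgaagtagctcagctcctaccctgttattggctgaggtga
Pola1: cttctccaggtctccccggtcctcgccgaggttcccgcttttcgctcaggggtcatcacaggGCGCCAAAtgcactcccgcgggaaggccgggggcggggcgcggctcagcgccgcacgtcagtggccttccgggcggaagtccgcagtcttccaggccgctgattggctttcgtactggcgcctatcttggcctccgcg
Top2a (chr11:99024190-99024389, minus strand) had no E2F letters in its window, and the capitals in its stretch mark CCAAT on either strand, found 5 times.
Top2a: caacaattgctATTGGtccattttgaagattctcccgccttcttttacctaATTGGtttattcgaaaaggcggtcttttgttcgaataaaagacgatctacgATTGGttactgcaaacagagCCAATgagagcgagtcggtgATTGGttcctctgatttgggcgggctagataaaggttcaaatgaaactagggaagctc
Mcm6 held 3 E2F matches in its stretch and Top2a held none. The Top2a stretch also held TTTGAA or TTCAAA 2 times, not marked in capitals. A link between these letters and the differences was not tested.

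After saline, 12 of the 40 replication genes were higher in islets labelled βKlf6KO than in islets labelled control, and 0 were lower. Over all 13591 genes tested, 2.09% were higher and 0.692% lower. The 12 were Cdc6, Mcm5, Cdc45, Mcm10, Pole, Tyms, Tk1, Clspn, Asf1b, Uhrf1, Dtl and Top2a. Across the 40 members the log2 difference was positive for 38 and negative for 2, with a median of 0.54, while the median over all genes tested was -5e-04. A gene passed at a Benjamini-Hochberg adjusted p below 0.05 in limma, adjusted over all genes tested, and 27 of 40 members had an unadjusted p below 0.05, all of them higher, against 14.4% of all genes in either direction. Values of the 2 groups did not overlap for 16 members, all higher, against 2.46% of all genes. These were the 12 together with Gmnn, Mcm3, Pole2 and Chaf1a. Of the 12, 7 were among the 10 members that met the filter only with labelled βKlf6KO libraries, and 5 were among the other 30. In bulk RNA, a larger share of cells in S phase and more RNA of these genes per cell cannot be told apart.

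**Figure D1:**
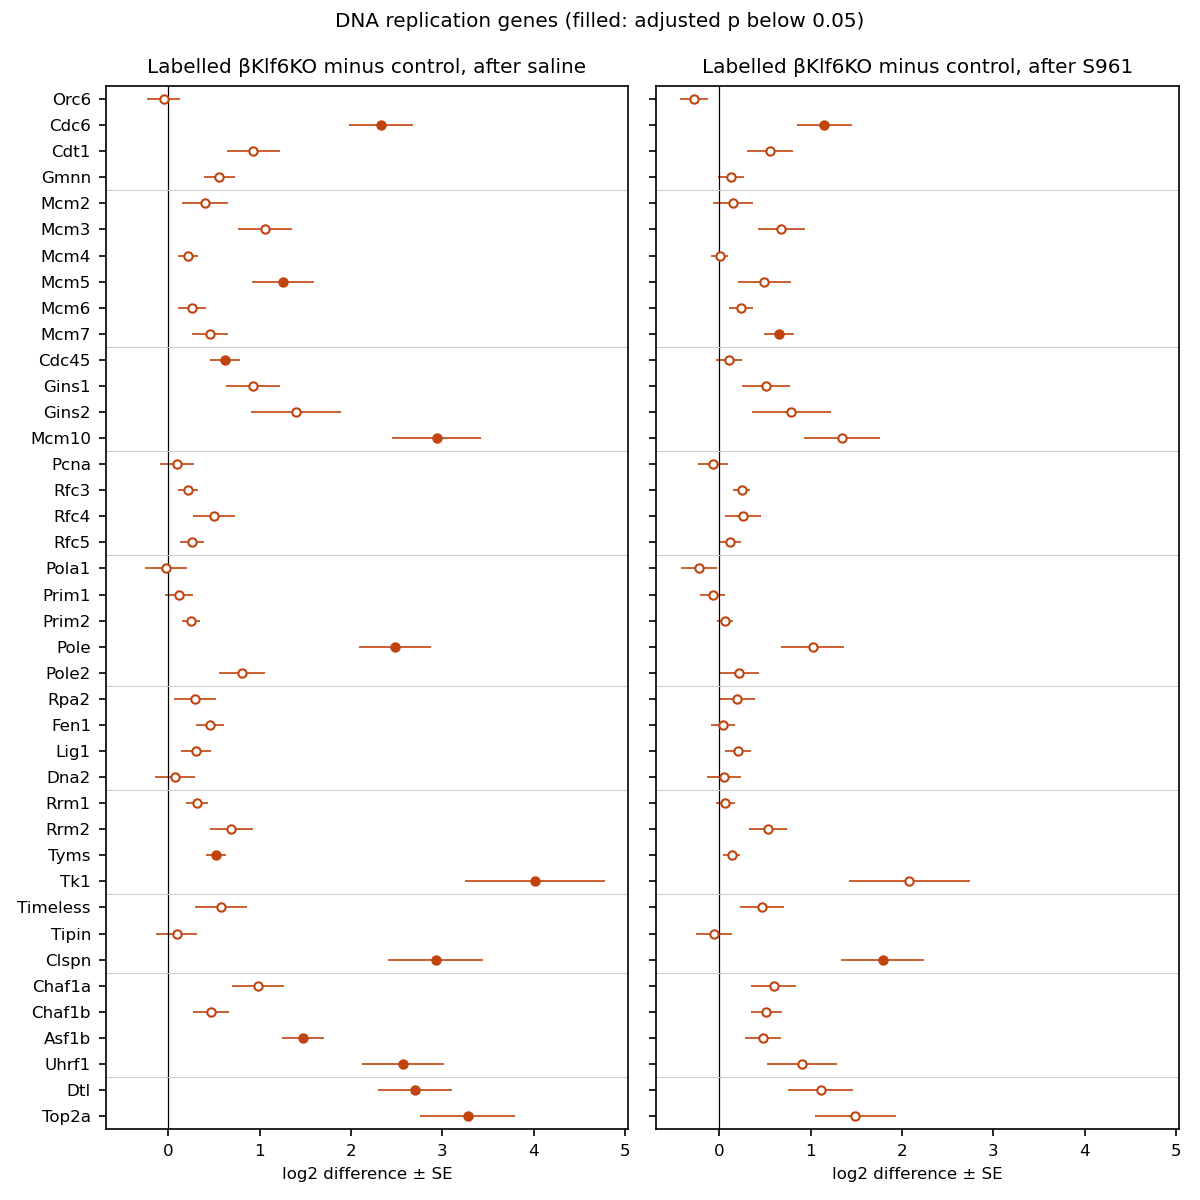
Log2 difference (x axis, point ± SE) between libraries labelled βKlf6KO and labelled control for the 40 replication genes (y axis, grouped by role), after saline (left, 6 against 6 libraries) and after S961 (right, 8 against 8). Filled points passed an adjusted p below 0.05: 12 after saline and 3 after S961, all to the right of 0.

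Origin licensing held 4 measured members, of which Cdc6 passed. Cdc6 (ENSMUSG00000017499, chr11:98907801-98923940, plus strand) encodes the ATPase that helps load MCM rings onto origins. It had a lowest, median and highest value of 0.193, 0.348 and 0.744 CPM in labelled control saline and 1.33, 1.84 and 2.22 CPM in labelled βKlf6KO saline. All 6 labelled βKlf6KO libraries lay above all 6 control libraries. The difference was 2.33 ± 0.35 log2 (SE; limma adjusted p = 4.46e-04), a 5.01-fold higher geometric mean. Cdt1, which works with CDC6 in loading, differed by 0.93 ± 0.29 and did not pass (limma adjusted p = 0.0846). Gmnn (ENSMUSG00000006715, chr13:24751845-24761923, minus strand) encodes geminin, which blocks CDT1 and so prevents a second round of licensing. Its lowest, median and highest values were 3.84, 4.93 and 5.93 CPM in labelled control saline and 6.21, 6.95 and 8.49 CPM in labelled βKlf6KO saline. The groups did not overlap, but the difference of 0.56 ± 0.17 log2 did not pass (limma adjusted p = 0.0753). It passed without labelled control S961 replicate 1 (0.0426) or replicate 2 (0.0383), which share the estimate of spread.

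Orc6 (ENSMUSG00000031697, chr8:85299632-85308278, plus strand), a subunit of the origin recognition complex, stood near the same level in both groups. Its lowest, median and highest values were 20.2, 21.8 and 36.2 CPM in labelled control saline and 21.4, 22.7 and 25.2 CPM in labelled βKlf6KO saline. The ranges overlapped, and the difference was -0.05 ± 0.18 log2 (limma adjusted p = 0.933). Its sign turned with the weighting of libraries and without labelled control saline replicate 4 (0.07), the library with its highest value.

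The MCM helicase genes Mcm2 to Mcm7 encode the 6 subunits of the ring, and 1 of 6 passed. Mcm5 (ENSMUSG00000005410, chr8:75109569-75128439, plus strand), whose promoter stretch is printed above, ran from 1.69 to 5.43 CPM with a median of 4.35 in labelled control saline. In labelled βKlf6KO saline it ran from 6.55 to 17.1 CPM with a median of 8.84, above every control value. The difference was 1.25 ± 0.34 log2 (limma adjusted p = 0.0396). This call was lost, with adjusted p between 0.0567 and 0.136, without any of labelled control saline replicates 1, 2, 4 or 6 or labelled βKlf6KO saline replicates 3, 4, 5 or 6. It was also lost with lane as a covariate (1.20, limma adjusted p = 0.0627) and with a filter at 5 CPM (limma adjusted p = 0.0647). Mcm3 differed by 1.06 ± 0.30 log2, just short of the threshold (limma adjusted p = 0.0508). The other 4 subunits were positive and did not pass: 0.45 for Mcm7, 0.40 for Mcm2, 0.26 for Mcm6 and 0.21 for Mcm4.

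Since the 6 subunits are built into 1 ring, their levels were also set side by side per kilobase of the longest transcript, on the linear scale. Mean levels in labelled control saline ran from 1.24 CPM per kilobase for Mcm5 and 1.81 for Mcm3 to 5.65 for Mcm7 and 7.08 for Mcm6. Differences in level between the labelled genotypes after saline were closer to each other than the log2 differences: 2.03 CPM per kilobase for Mcm7, 1.83 for Mcm3, 1.67 for Mcm5, 1.45 for Mcm6, 0.841 for Mcm2 and 0.805 for Mcm4. The subunits with the largest log2 differences, Mcm5 and Mcm3, were the 2 with the lowest level per kilobase in labelled control saline. That level enters the log2 difference, so this order is a description only. Exons of Mcm7 overlap those of Ap4m1 on the other strand by 247 bases, and nothing in the sources used here states how strand was handled. Members that passed after saline also overlap genes on the other strand: Cdc45 with Ufd1 (164 bases), Tk1 with Afmid (83) and Pole with Gm15792 (78). Top2a overlaps the small RNA gene Gm23451 on its own strand by 122 bases.

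Origin firing held 4 members, and Mcm10 and Cdc45 passed. Mcm10 (ENSMUSG00000026669, chr2:4989714-5012791, minus strand) encodes a factor needed to start unwinding at the assembled helicase. Its lowest, median and highest values were 0.0796, 0.236 and 0.419 CPM in labelled control saline, which rest on 2 to 15 reads, and 1.3, 1.64 and 2.35 CPM in labelled βKlf6KO saline. The groups did not overlap, and the difference was 2.94 ± 0.49 log2 (limma adjusted p = 7.16e-04). Cdc45, a part of the active helicase, differed by 0.62 ± 0.16 log2 (limma adjusted p = 0.0362). The Cdc45 call was lost, with adjusted p between 0.0514 and 0.107, without any of labelled control saline replicates 1 to 4 or labelled βKlf6KO saline replicates 2, 4, 5 or 6, and under quantile normalization (0.41, limma adjusted p = 0.123). Gins1 and Gins2, subunits of the GINS complex, differed by 0.93 ± 0.30 and 1.40 ± 0.49 log2 and did not pass (limma adjusted p = 0.0991 and 0.139). Gins2 exons overlap 2758 bases of Gse1 on the other strand.

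Of 4 sliding clamp and clamp loader genes, 0 passed in limma. Rfc4 had the smallest p, and 1 of the 4 had an unadjusted p below 0.05. Rfc4 (ENSMUSG00000022881, chr16:23113943-23127737, minus strand), a subunit of the loader that opens the clamp, ran from 5.02 to 12.5 CPM with a median of 7.22 in labelled control saline. In labelled βKlf6KO saline it ran from 8.16 to 13.1 CPM with a median of 10.8. The ranges overlapped, and the difference was 0.50 ± 0.23 log2 (limma adjusted p = 0.292). Pcna, the clamp itself, had the highest level per kilobase of the 40 members, 30.7 CPM per kilobase in labelled control saline. Its difference was 0.10 ± 0.18 log2 (limma adjusted p = 0.884). Pcna has 2 processed pseudogenes by name, so its reads may be shared among copies.

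Among 5 polymerase and primase genes, Pole passed. Pole (ENSMUSG00000007080, chr5:110286306-110337474, plus strand) encodes the catalytic subunit of polymerase epsilon, the main leading strand polymerase. Its lowest, median and highest values were 0.239, 0.647 and 0.777 CPM in labelled control saline and 2.32, 3.07 and 3.44 CPM in labelled βKlf6KO saline, with no overlap. The difference was 2.48 ± 0.39 log2 (limma adjusted p = 5.71e-04). Pola1 (ENSMUSG00000006678, chrX:93304767-93632155, minus strand), the catalytic subunit of polymerase alpha that extends primers, stood near the same level in both groups. It ran from 9.95 to 23.7 CPM with a median of 11.6 in labelled control saline and from 11.9 to 15.3 CPM with a median of 12.5 in labelled βKlf6KO saline. Its difference was -0.02 ± 0.23 log2 (limma adjusted p = 0.974), and the sign turned without labelled control saline replicate 4 (0.14) or replicate 6 (0.03). Pole2, the second subunit of polymerase epsilon, differed by 0.80 ± 0.25 log2 without passing (limma adjusted p = 0.0843).

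Of 4 genes for single-strand binding and lagging strand maturation, 0 passed in limma, and 1 had an unadjusted p below 0.05. Fen1 (ENSMUSG00000024742, chr19:10199132-10204169, minus strand), the nuclease that removes flaps between Okazaki fragments, ran from 5.81 to 9.75 CPM with a median of 7.98 in labelled control saline. In labelled βKlf6KO saline it ran from 9.08 to 12.2 CPM with a median of 10.8, overlapping the control range. The difference was 0.46 ± 0.15 log2 (limma adjusted p = 0.116). Fen1 exons overlap 1909 bases of the antisense gene Gm10143. Dna2 (ENSMUSG00000036875, chr10:62947026-62974185, plus strand), a nuclease and helicase that trims long flaps, ran from 0.876 to 1.51 CPM with a median of 1.34 in labelled control saline and from 1.03 to 1.71 CPM with a median of 1.26 in labelled βKlf6KO saline. Its difference was 0.07 ± 0.22 log2 (limma adjusted p = 0.929), and the sign turned under quantile normalization (-0.28), without labelled control saline replicate 1 (-0.03) or without labelled βKlf6KO saline replicate 3 (-0.01).

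Nucleotide supply held 4 members, and Tk1 and Tyms passed. Tk1 (ENSMUSG00000025574, chr11:117815526-117826092, minus strand), the thymidine kinase of the salvage route, was close to the detection limit in labelled control saline. Replicates 1 to 6 of that group had 2, 1, 12, 2, 6 and 1 reads, and replicates 1 to 6 of labelled βKlf6KO saline had 42, 43, 57, 39, 32 and 145 reads. The groups did not overlap, and the fitted difference was 4.01 ± 0.76 log2 (limma adjusted p = 0.00262). That size rests on the 0.5 read added before the logarithm, and with values below 1 CPM set to 1 CPM it was 0.54 and did not pass (limma adjusted p = 0.185). Tyms, which makes thymidylate, was a moderately expressed member with a small difference of 0.52 ± 0.11 log2 (limma adjusted p = 0.00514), from a median of 7.79 CPM to 11.1 CPM. Under quantile normalization it was 0.45 and did not pass (limma adjusted p = 0.155). Tyms has a processed pseudogene by name, so its reads may be shared among copies. Rrm1 and Rrm2, the subunits of ribonucleotide reductase, differed by 0.31 ± 0.12 and 0.69 ± 0.24 log2 without passing (limma adjusted p = 0.183 and 0.124).

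Fork protection and checkpoint genes gave 1 call in 3. Clspn (ENSMUSG00000042489, chr4:126556935-126593903, plus strand) encodes claspin, which carries the checkpoint signal at stalled forks. Its lowest, median and highest values were 0.105, 0.268 and 0.852 CPM in labelled control saline and 1.54, 2.24 and 2.8 CPM in labelled βKlf6KO saline, with no overlap. The difference was 2.92 ± 0.52 log2 (limma adjusted p = 0.00137). Timeless and Tipin, the pair that couples helicase and polymerase, differed by 0.58 ± 0.28 and 0.09 ± 0.22 log2 and did not pass (limma adjusted p = 0.347 and 0.911).

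Chromatin assembly and methylation copying gave 2 calls in 4. Asf1b (ENSMUSG00000005470, chr8:83955507-83970197, plus strand), a histone chaperone, had 1, 1.28 and 2.12 CPM as lowest, median and highest value in labelled control saline and 2.72, 3.94 and 4.31 CPM in labelled βKlf6KO saline. The groups did not overlap, and the difference was 1.47 ± 0.23 log2 (limma adjusted p = 5.13e-04). Uhrf1, which brings the maintenance methyltransferase to newly copied DNA, differed by 2.57 ± 0.45 log2 (limma adjusted p = 0.00108), from a median of 0.573 CPM to 3.29 CPM. Chaf1a and Chaf1b, subunits of the chromatin assembly factor, differed by 0.98 ± 0.29 and 0.46 ± 0.20 log2 without passing (limma adjusted p = 0.0608 and 0.253). Chaf1a exons overlap 2542 bases of Ubxn6 on the other strand.

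Both genes of turnover and topology passed. Dtl (ENSMUSG00000037474, chr1:191537356-191575544, minus strand) encodes the adaptor of a ubiquitin ligase that removes CDT1 in S phase. It had 0.366, 0.656 and 2.01 CPM as lowest, median and highest value in labelled control saline and 3.71, 5.33 and 6.6 CPM in labelled βKlf6KO saline, with no overlap. The difference was 2.70 ± 0.41 log2 (limma adjusted p = 4.46e-04). Top2a (ENSMUSG00000020914, chr11:98992943-99024189, minus strand), the topoisomerase that untangles copied chromosomes, had 1.42, 2.58 and 9.94 CPM in labelled control saline and 25.9, 31.5 and 39.8 CPM in labelled βKlf6KO saline. Every labelled βKlf6KO value was above every control value, and the difference was 3.28 ± 0.52 log2 (limma adjusted p = 5.71e-04), a 9.68-fold higher geometric mean. On the linear scale its difference of 27.9 CPM exceeded that of each other member, the next being 9.61 CPM for Rrm1.

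**Figure D2:**
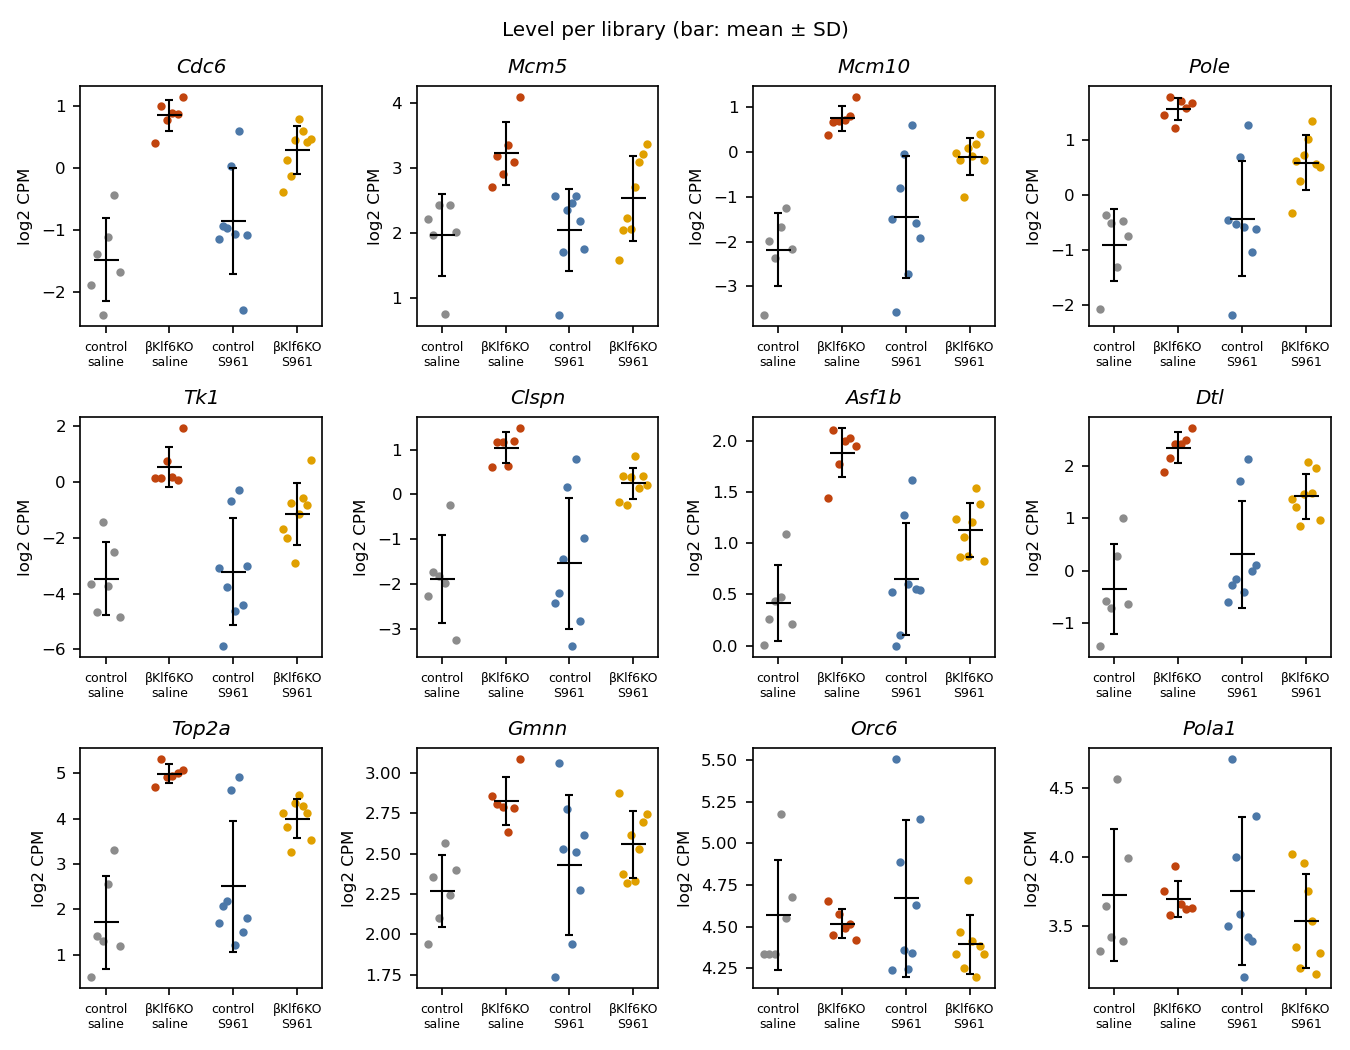
Level of 12 replication genes in each of the 28 libraries (y axis, log2 CPM; points are mice, bars the mean ± SD) by labelled group (x axis). Cdc6, Mcm5, Mcm10, Pole, Tk1, Clspn, Asf1b, Dtl, Top2a and Gmnn did not overlap between the 2 saline groups, while Orc6 and Pola1 did; for Top2a, 2 labelled control S961 libraries lie at 24.8 and 30.3 CPM, well above the other 6.

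Levels in labelled control saline are set beside the log2 differences as a description only, since that level enters both quantities. The 10 members below 1 CPM there were Cdc6, Cdt1, Gins1, Gins2, Mcm10, Pole, Tk1, Clspn, Uhrf1 and Dtl. Each reached the filter's 6 libraries at 1 CPM only with labelled βKlf6KO libraries, in which they were high, so a low level and a large difference were partly tied together by the filter. Mcm10 and Tk1 had 4 and 1 libraries at 1 CPM outside labelled βKlf6KO saline and so passed the filter through that group. Among the other members, 4 of 9 between 1 and 4 CPM were higher (median difference 0.80 log2), 1 of 14 between 4 and 16 CPM (median 0.35) and 0 of 7 above 16 CPM (median 0.21).

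**Figure D3:**
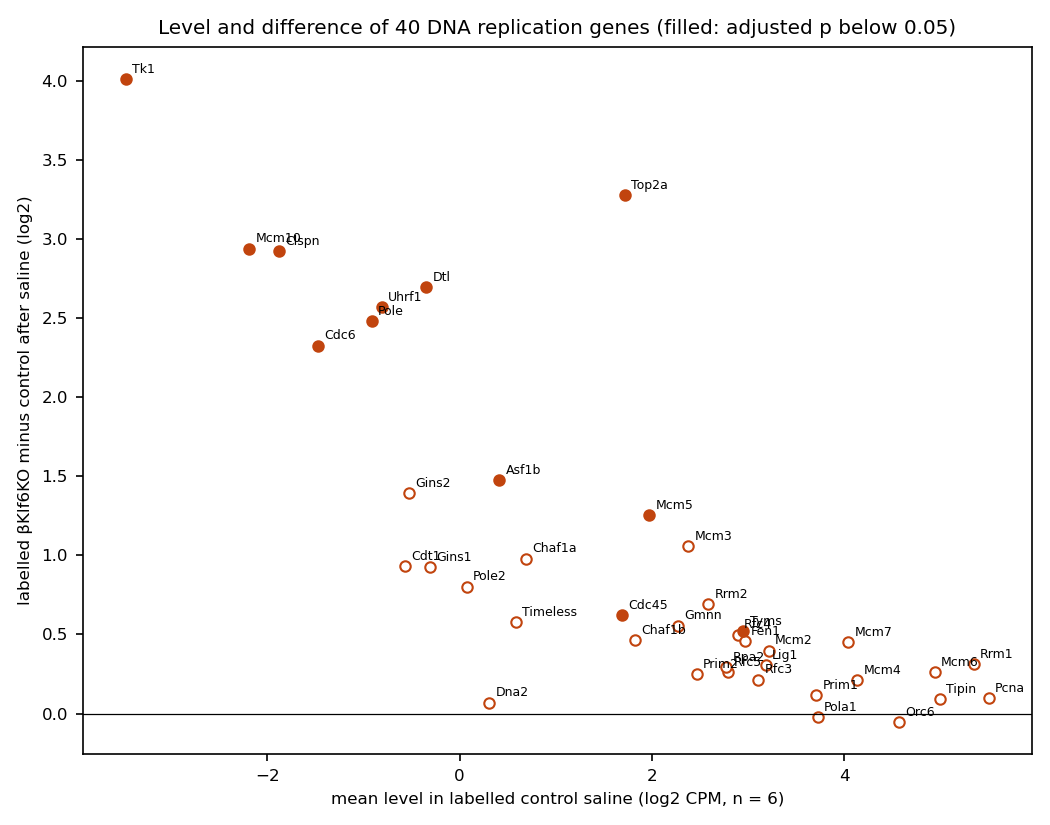
Mean level in labelled control saline (x axis, log2 CPM, n = 6) against the log2 difference between libraries labelled βKlf6KO and labelled control after saline (y axis) for the 40 replication genes. Filled points passed an adjusted p below 0.05; the 10 members below 1 CPM (left of 0) passed the filter on low values only with labelled βKlf6KO libraries, and the 7 members above 16 CPM have a median difference of 0.21.

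Counted by library, the members separated the saline groups, which is a description only. The count includes 10 members that met the filter only with labelled βKlf6KO libraries and 16 that did not overlap between the saline groups. It therefore adds no further support to the calls above. Between 4 and 19 of the 40 members (median 9) were above their own median over the 28 libraries in labelled control saline, and between 29 and 39 (median 37) in labelled βKlf6KO saline. After S961 the counts ran from 8 to 21 (median 10) in labelled control and from 14 to 32 (median 25) in labelled βKlf6KO. The highest labelled control libraries were S961 replicate 6 with 21, saline replicate 5 with 19 and S961 replicate 4 with 17. In S961 replicates 4 and 6, 10 and 11 of the 12 genes called after saline were above their medians, against at most 1 in each other labelled control S961 library. Every lane held all 4 labelled groups, and within lanes 4, 5, 6 and 7 the median member difference after saline was 0.53, 0.56, 0.52 and 0.68 log2. All 12 called genes were positive in each lane. Since their values did not overlap between the 2 saline groups, that sign was fixed in advance and is no further support. A lane holds 1 or 2 libraries of a group.

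**Figure D4:**
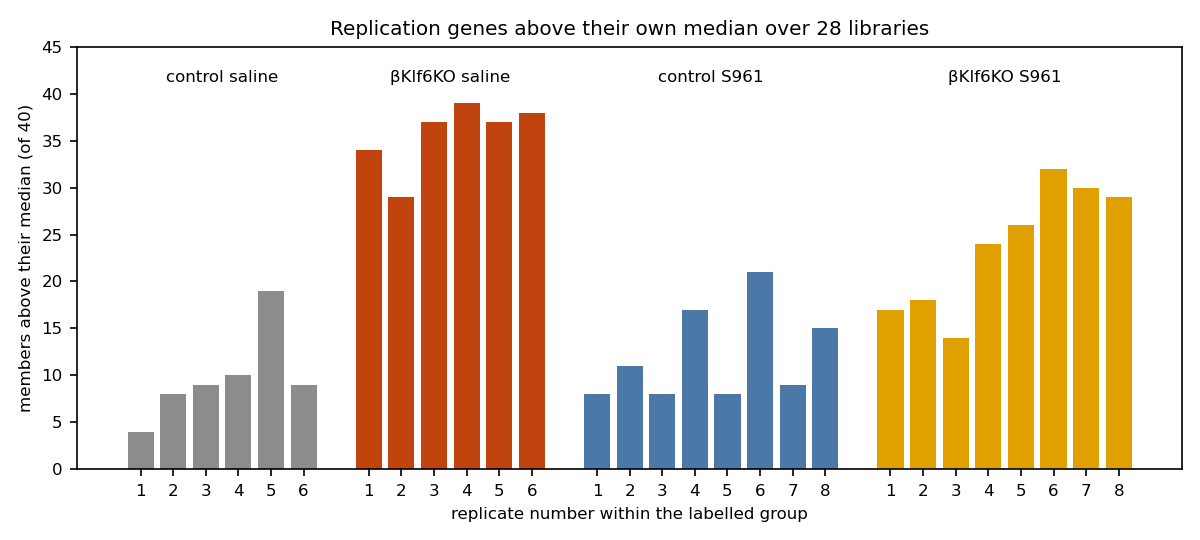
Number of the 40 replication genes above their own median over all 28 libraries (y axis) in each library (x axis, replicate number within the labelled group; 1 bar per mouse). Labelled βKlf6KO saline libraries reach 29 to 39 and labelled control saline libraries 4 to 19, and 2 labelled control S961 libraries, replicates 4 and 6, reach 17 and 21. The count is a description, since 10 of the members met the filter on low values only with labelled βKlf6KO libraries.

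Genes of cell division that are not replication genes moved with the same labels. All 17 of 17 division markers were higher in labelled βKlf6KO after saline, and 8 of 17 after S961. Their summed level ran from 10.0 to 36.6 CPM in labelled control saline, 94.0 to 157 CPM in labelled βKlf6KO saline, 10.4 to 117 CPM in labelled control S961 and 51.4 to 79.2 CPM in labelled βKlf6KO S961. Mki67, a marker of cycling cells, differed by 3.50 ± 0.55 log2 after saline (limma adjusted p = 5.71e-04) and by 1.48 ± 0.47 after S961 (limma adjusted p = 0.064). The 2 labelled control libraries with the highest division sums were S961 replicate 6 (117 CPM) and replicate 4 (96.6 CPM), the same libraries in which the called replication genes were high.

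Markers of other cell types also moved with the labelled genotype. After saline 5 of 8 macrophage markers, 2 of 5 tested lymphocyte markers and 2 of 7 fibroblast markers were higher in labelled βKlf6KO. Macrophage markers summed to 94.9 to 148 CPM in labelled control saline, 141 to 779 CPM in labelled βKlf6KO saline, 116 to 210 CPM in labelled control S961 and 142 to 465 CPM in labelled βKlf6KO S961. The 7 lymphocyte markers with a row summed to 2.32 to 8.80, 2.82 to 66.2, 1.63 to 12.5 and 1.52 to 26.8 CPM in the same order, and Cd3e, Cd8a and Nkg7 were not analysed here. Fibroblast and stellate markers summed to 17.5 to 38.3, 27.3 to 149, 19.3 to 60.1 and 42.2 to 117 CPM, and 4 of 7 were higher after S961. With the macrophage and lymphocyte marker means as covariates in limma, 0 members passed after saline (14 at an unadjusted p below 0.05, all higher), and 24 of the 13591 genes passed. Over all genes in that fit, 579 were higher and 190 lower at an unadjusted p below 0.05. Cdc6 then differed by 2.07 log2 and Asf1b and Dtl by 1.37 and 2.49 (each with a limma adjusted p of 0.0533), and Mcm5 by 0.42 (limma adjusted p = 0.978). After saline 0 of 5 ductal and 0 of 7 tested acinar markers were called in limma (0 of each at an unadjusted p below 0.05). After S961 ductal markers summed to 255 to 432 CPM in labelled control and 509 to 1111 CPM in labelled βKlf6KO, with no overlap, and 1 of 5, Spp1, was higher (3 at an unadjusted p below 0.05). Acinar markers after S961 summed to 3834 to 33006 and 21489 to 90696 CPM, with 0 of 7 called in limma and 5 higher at an unadjusted p below 0.05. The β cell markers lower in labelled βKlf6KO were 2 of 9 after saline, Slc2a2 by -0.73 ± 0.19 and Nkx6-1 by -0.48 ± 0.12 log2, and 3 of 9 after S961.

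Labelled βKlf6KO saline replicates 2 and 5 had macrophage sums of 141 and 144 CPM and lymphocyte sums of 2.82 and 4.87 CPM, within the ranges of labelled control saline. Their fibroblast and stellate sums were 27.3 and 63.5 CPM, of which the second lay above the whole labelled control saline range. The part of the marker cells in the members' differences was not tested beyond these values.

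After S961, 3 of the 40 members were higher in libraries labelled βKlf6KO than in libraries labelled control, and 0 were lower, against 2.35% higher and 2.01% lower over all genes tested (4.36% in either direction). The 3 were Cdc6, Mcm7 and Clspn. Of these, Cdc6 and Clspn met the filter on low values only with labelled βKlf6KO libraries, with 2 labelled control libraries each at 1 CPM. Their calls were therefore partly tied to the filter. Mcm7 was the 1 call among the other 30 members, near the share of all genes higher. The median member difference was 0.25 log2, against 0.02 over all genes, 35 of 40 were positive, and 16 had an unadjusted p below 0.05, all higher, against 22.9% of all genes in either direction. The ranges of the 2 groups overlapped for all 40 members, while 0.103% of all genes were higher without overlap.

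Clspn had the smallest p of the members. Its lowest, median and highest values were 0.0957, 0.293 and 1.72 CPM in labelled control S961 and 0.844, 1.23 and 1.8 CPM in labelled βKlf6KO S961. Replicates 4 and 6 of labelled control S961, at 1.11 and 1.72 CPM, lay within the labelled βKlf6KO range, and the other 6 control libraries lay below it. The difference was 1.79 ± 0.45 log2 (limma adjusted p = 0.0291). Cdc6 showed the same placing of libraries: replicates 4 and 6 of labelled control S961 stood at 1.03 and 1.52 CPM and the other 6 between 0.205 and 0.522 CPM, against 0.763 to 1.73 CPM in labelled βKlf6KO S961. Cdc6 differed by 1.15 ± 0.30 log2 (limma adjusted p = 0.033). With values below 1 CPM set to 1 CPM, Clspn differed by 0.18 and Cdc6 by 0.28 log2. Neither then passed (limma adjusted p = 0.429 and 0.161). Mcm7 ran from 7.3 to 21.6 CPM with a median of 16.2 in labelled control S961 and from 17.6 to 30.4 CPM with a median of 21.6 in labelled βKlf6KO S961. It differed by 0.65 ± 0.17 log2 (limma adjusted p = 0.0308), with 8 of 8 labelled βKlf6KO libraries above the control mean.

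The other 10 genes that passed after saline were positive after S961 and did not pass. Top2a differed by 1.49 ± 0.45 log2 (limma adjusted p = 0.0524), Mcm10 by 1.34 ± 0.42 (0.0614), Dtl by 1.11 ± 0.35 (0.064), Tk1 by 2.08 ± 0.66 (0.064) and Pole by 1.02 ± 0.34 (0.0757). Asf1b, Uhrf1, Mcm5, Tyms and Cdc45 had adjusted p-values from 0.147 to 0.663 in limma. Top2a ran from 2.31 to 30.3 CPM in labelled control S961, with replicates 4 and 6 at 24.8 and 30.3 CPM and the other 6 at no more than 4.54 CPM. In labelled βKlf6KO S961 it ran from 9.55 to 23 CPM.

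The number of calls after S961 turned on single libraries. Without labelled control S961 replicate 4 there were 8 members higher (2.9% of all genes), and without replicate 6 there were 9 (3.06% of all genes), among them the 3 named above and Mcm10, Pole, Tk1, Dtl and Top2a in both. Without labelled control S961 replicate 2 or 3, or labelled βKlf6KO S961 replicate 6, 7 or 8, there were 0 in limma, with 12 to 15 at an unadjusted p below 0.05, and 0.598% to 0.752% of all genes were higher. Over all genes in those fits, 1254 to 1378 were higher and 1035 to 1187 lower at an unadjusted p below 0.05. Without labelled control S961 replicate 5 or labelled βKlf6KO S961 replicate 5 only Mcm7 was called, against 0.817% and 1.23% of all genes higher. Within lanes 4 and 6, which held labelled control S961 replicates 4 and 6, the median member difference was 0.17 and 0.21 log2, and within lanes 5 and 7 it was 0.42 and 0.48. Macrophage and lymphocyte markers gave 0 calls after S961 in limma (5 of 8 macrophage and 0 of 5 lymphocyte markers at an unadjusted p below 0.05), and with their means as covariates 0 members passed (10 at an unadjusted p below 0.05), against 0.147% of all genes higher. Over all genes in that covariate fit, 1000 were higher and 676 lower at an unadjusted p below 0.05. Clspn then differed by 1.76, Cdc6 by 0.99 and Mcm7 by 0.43 log2 (limma adjusted p = 0.115, 0.189 and 0.241).

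S961 against saline gave no call among the members in either labelled genotype. In labelled control islets 0 of 40 passed in limma, against 0% of all genes, and with voom weights 0 passed as well. The median member difference was 0.05 log2, and 1 member, Dna2, had an unadjusted p below 0.05, against 0.765% of all genes. Dna2 ran from 0.876 to 1.51 CPM with a median of 1.34 after saline and from 0.544 to 1.56 CPM with a median of 0.864 after S961. The ranges overlapped, as they did for all 40 members (0.00736% of all genes were higher without overlap), and its difference of -0.42 ± 0.20 log2 did not pass (limma adjusted p = 0.973).

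In labelled βKlf6KO islets 0 of 40 passed in limma, against 0% of all genes, and with voom weights 0 passed as well. The median member difference was -0.28 log2, 39 of 40 were negative, and 11 had an unadjusted p below 0.05, all of them lower, against 3.04% of all genes in either direction. Asf1b had the smallest p. It ran from 2.72 to 4.31 CPM with a median of 3.94 after saline and from 1.77 to 2.92 CPM with a median of 2.2 after S961, a difference of -0.76 ± 0.21 log2 (limma adjusted p = 0.9997). Top2a was the 1 member whose ranges did not overlap, with 25.9 to 39.8 CPM after saline and 9.55 to 23 CPM after S961, against 0.191% of all genes lower and 0.0809% higher without overlap. Its difference was -0.99 ± 0.48 log2 (limma adjusted p = 0.9997). This comparison shares its saline libraries with the labelled genotype comparison after saline, so the members' values in the 2 are not independent.

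The difference of the S961 responses between labelled genotypes asks whether the labelled genotype effect differed between treatments. In limma 0 of 40 members passed, against 0% of all genes, and with voom weights 0 passed as well. The median over the members was -0.31 log2, against 0.01 over all genes, and 9 members had an unadjusted p below 0.05, all negative, against 2.58% of all genes. Asf1b had the smallest p, with -0.998 ± 0.300 log2 (limma adjusted p = 0.999995). Top2a stood at -1.79 ± 0.68, Uhrf1 at -1.66 ± 0.59, Dtl at -1.59 ± 0.54 and Mcm10 at -1.59 ± 0.64 log2, each with a limma adjusted p of 0.999995. The larger number of calls after saline than after S961 is therefore not shown to be a difference between treatments for any single member.

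Summed over the 40 members, the level ran from 312 to 418 CPM (median 347) in labelled control saline and from 427 to 526 CPM (median 466) in labelled βKlf6KO saline, with no overlap. After S961 the sums were 299 to 460 CPM (median 370) in labelled control and 341 to 451 CPM (median 413) in labelled βKlf6KO, and they overlapped. These sums weigh the abundant members most, such as Pcna, Rrm1 and Tipin.

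A list of other DNA replication genes was counted beside the members. Of 56 further names, 53 had a row, 51 passed the filter, and Ticrr, Recql4 and E2f8 were not analysed here. After saline 3 of the 51 were higher and 0 lower in labelled βKlf6KO, against 2.09% higher and 0.692% lower over all genes tested. Their median difference was 0.08 log2. The 2 with the smallest p were 2810417H13Rik, the table's name for Pclaf, a partner of PCNA, with 4.43 ± 0.78 log2 (limma adjusted p = 0.00111), and Hells, a chromatin remodeller, with 1.56 ± 0.31 log2 (limma adjusted p = 0.00388). The size for 2810417H13Rik rests on the added 0.5 read, since its values in labelled control saline ran from 0.0159 to 0.491 CPM, against 2.56 to 8.1 CPM in labelled βKlf6KO saline. The third was Ccne1, a cyclin that promotes entry into S phase, with 0.46 ± 0.12 log2 (limma adjusted p = 0.0373). After S961 Ccne1 alone of the 51 passed, with 0.49 ± 0.11 log2 (limma adjusted p = 0.0145), and the median was 0.01. That count is near the share of all genes higher after S961 (2.35%). S961 against saline and the difference of responses gave 0 of 51 in limma, with 0 to 3 at an unadjusted p below 0.05. Over all genes that share was 0.765% in labelled control islets, 3.04% in labelled βKlf6KO islets and 2.58% for the difference of responses.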

How the data were processed

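Islet RNA was measured in 28 libraries, 1 mouse each, grouped by the labels. The authors deposited log2 CPM values for 14219 genes. Per the submitters' processing notes, STAR 2.5.3a, HTSeq 0.9.1 and edgeR were used on GRCm38; their order, the annotation and the handling of strand are not given in the sources used here. The values have the form of log2 of reads plus 0.5 over a scaled library size, and inverting it gave whole reads within 0.05 for 100% of values. CPM printed here includes that offset.

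A minimum of 1 CPM in 6 or more libraries left 13591 genes and removed 628. In limma 3.58.1 (R 4.3.3), a model of group means over the 28 libraries (empirical Bayes, variance trended on intensity) gave 5 comparisons, two-sided, with Benjamini-Hochberg adjustment over all genes tested. The fit was also run on simulated data in which the libraries' residuals were shuffled across groups, and no result here rests on that run. The members, lists, tests and rule for named genes were chosen with earlier results of these data known. Values are given in full, per role group, for the member with the smallest p after saline. The same was done for the smallest p in each other comparison, for Gmnn, and for the 3 smallest absolute differences after saline; other members with values were chosen after those were seen. Levels per kilobase use the longest GENCODE M21 transcript, which also gave coordinates (GRCm38). Promoters are from RefSeq (GRCm38.p6).

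Alternatives were no filter, a filter at 5 CPM, a floor at 1 CPM, quantile and median scaling, robust moderation, no trend, library weights, lane or replicate number as covariates, a fit of only the groups compared, and each library left out. Chosen after the data were seen were voom weights on the recovered reads, a fit without 3 libraries, and marker means or the first principal component as covariates. Replicate numbers were not taken to pair samples across groups.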

Additional observations from a re-analysis of the deposited data

Results flagged for a closer look

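In 16 of 160 combinations of a member and a labelled group, a single library stood apart from the others by Dixon's test (log2 CPM in brackets beside the nearest other library); chance flags about 1 in 20. Labelled control saline replicate 4 gave 5 of them: it was lowest for Mcm3 (1.30, next 2.40), Mcm5 (0.76, next 1.97), Gins2 (-1.82, next -0.48) and Rpa2 (1.74, next 2.86), and highest for Tipin (5.82, next 5.02). Labelled control S961 replicate 2 gave another 5, lowest for Cdt1 (-1.37, next -0.50), Mcm3 (0.93, next 2.07), Mcm5 (0.74, next 1.71), Timeless (-1.37, next 0.33) and Chaf1b (1.07, next 1.66). These were the 2 libraries with the highest scores on the first principal component over all genes. Labelled βKlf6KO S961 replicate 4 was highest for Orc6 (4.78, next 4.46) and lowest for Rpa2 (2.25, next 2.76). In the same group replicate 6 was highest for Cdc45 (2.12, next 1.83) and replicate 3 lowest for Mcm10 (-1.0, next -0.19). Labelled βKlf6KO saline replicate 2 was lowest for Prim2 (2.39, next 2.69), and replicate 6 was highest for Tk1 (1.93, next 0.75), with 145 reads.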

How the results depend on the processing

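After saline, the count of members called (12, all higher), with 2.09% of all genes higher, was 31 with library weights (11.5% of all genes), 26 with the first component as covariate (9.03%), 19 without the 3 libraries of highest first component (3.41%), 2 of 23 measured with a filter at 5 CPM (0.723%) and 0 with macrophage and lymphocyte means as covariates (0.169%). The causes were not tested, except that the filter at 5 CPM left fewer members. Each library left out gave 10 to 16, and every other alternative gave 11 to 15. After S961 the count (3, with 2.35% of all genes higher) was 14 with the first component (12.1%), 6 with voom weights (2.93%), 5 with lane (2.79%) and 4 without the 3 libraries (3.71%). A filter at 5 CPM left 23 members, without Cdc6 and Clspn, and gave 1 (2.02%). A floor at 1 CPM (2.11%) and quantile scaling (1.29%) also gave 1 each. These single calls are near the share of all genes. The count was 0 with the marker means (0.147%) and with only the groups compared (0.155%). In the latter fit 15 members had an unadjusted p below 0.05, beside 1303 higher and 1035 lower over all genes. Each library left out gave 0 to 9. S961 in labelled βKlf6KO islets gave 3 lower (Mcm10, Pole, Clspn) with a floor at 1 CPM (0.0809% of all genes lower) and 0 otherwise. These 3 met the filter on low values only with labelled βKlf6KO libraries, and their values lie near that floor. S961 in labelled control islets and the difference of responses gave 0 throughout. The fit of only the groups compared does not apply to the difference of responses. Members near 0 after saline turned sign: Pola1 to 0.15 with library weights, 0.14 without the 3 libraries, 0.19 with marker means and 0.17 with the first component, and between -0.106 and 0.145 on leaving out each library; Orc6 to 0.10, 0.069, 0.20 and 0.089 in the same order, and between -0.099 and 0.069 on leaving out each library; Dna2 to -0.28 with quantile scaling and between -0.0304 and 0.137 on leaving out each library. With replicate number as a block the counts were 13 (2.06% of all genes higher), 4 (2.85%), 0, 0 and 0. Of 38 same-numbered pairs 13 had a correlation above 0.1 (range -0.71 to 0.85), and 2 of 28 libraries matched their own number best, so the numbers were not taken to pair samples. Genes below about 1 CPM rest on few reads, which limits the size of their differences.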
